A study of Mus musculus with 16 samples.

Results

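Gene expression in the brachiocephalic artery of Apoe-/- mice was compared between 42 and 24 weeks of a Western-type diet, across all measured genes. The libraries were chosen by their sample labels alone: 4 libraries from 42 weeks and 4 from 24 weeks, each from a different female mouse with Mif intact, which are 8 of the 16 libraries in the series. The other 8 come from Apoe-/-Mif-/- mice, 4 at each duration. They entered the same model and served to compare the effect of duration between genotypes. All mice ate chow to 6 weeks of age and then a diet with 0.2% cholesterol and 21.2% fat, so the 24-week mice were 30 weeks old and the 42-week mice 48 weeks old, and diet duration and age cannot be told apart. All 8 mice lack Apoe, the apolipoprotein that clears lipoprotein remnants from blood, and no mouse with Apoe or on chow is among the groups used here. Each library was made by the Smart-seq2 method from 1 ng of polyA RNA, taken from the pooled lysates of 3 to 4 unsorted frozen artery sections of 5 µm. In such bulk samples, fewer cells of a type and less RNA per cell cannot be told apart. The 8 libraries lay in 1 plate row, the 42-week group in columns 1 to 4 and the 24-week group in columns 9 to 12, so plate position cannot be told apart from group either. The 42-week Apoe-/-Mif-/- libraries lay in that same row and the 24-week ones in another. Plate row therefore cannot be told apart from duration in the Apoe-/-Mif-/- mice.

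The brachiocephalic artery is a site where Apoe-/- mice form advanced plaques. In a plaque, macrophages and modified smooth muscle cells take up lipoproteins and store their cholesterol as ester droplets, and such lipid-laden cells are called foam cells. Lipoproteins and dead cells that have been taken up are broken down in lysosomes, where acid hydrolases such as the cathepsins work at the low pH held by a proton pump, the vacuolar ATPase. Many lysosomal genes carry a palindromic E-box in their promoters that is bound by transcription factors of the TFEB and TFE3 family.

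The 24-week libraries held 2163720 to 8649518 gene counts and the 42-week libraries 378066 to 4586278. Genes detected numbered 15333 ± 1854 at 24 weeks and 12626 ± 1686 at 42 weeks (SD, n = 4 each; exact two-sided permutation p = 0.114, adjusted over 6 library measures 0.229), and 10893 ± 1685 against 9099 ± 1099 after every library was brought to 378066 counts. The smallest p that 4 against 4 libraries allow is 0.0286. Libraries 1 and 4 of the 24-week group stood apart from the other 6: the summed level of 18 contractile smooth muscle genes was 2741 and 5645 CPM (the share of a library's counts scaled by edgeR's TMM factors) against 6998 to 20379, while the brown adipocyte list summed to 15802 and 3628 CPM against 82.1 to 360 and the fast skeletal muscle list to 6015 and 3163 CPM against 27.2 to 155. Library 4 of that group also held thymus genes at a summed 2466 CPM, against 4.22 to 88.4 CPM in the other 7. In the 42-week group, library 2 held red cell genes at 20216 CPM against 199 to 2178 in the other 7. Of the genes that define smooth muscle in an artery, Acta2 (426 to 7783 CPM) and Myh11 (44.9 to 1675 CPM) were present in all 8 libraries, but Tagln reached no more than 46.4 CPM in any of the 8. Spearman correlations across genes had a median of 0.485 between pairs of 24-week libraries, 0.515 between pairs of 42-week libraries and 0.513 between pairs from different durations. Mif was at 141 ± 33.5 CPM at 24 weeks and 160 ± 116 CPM at 42 weeks. Apoe reads were present at 6.88 to 91.0 CPM at 24 weeks and at 4.73 to 1127 CPM at 42 weeks, where library 4 held 74.0% of the Apoe CPM of the 8, and the labels do not say which part of the gene is deleted.

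**Figure D1:**
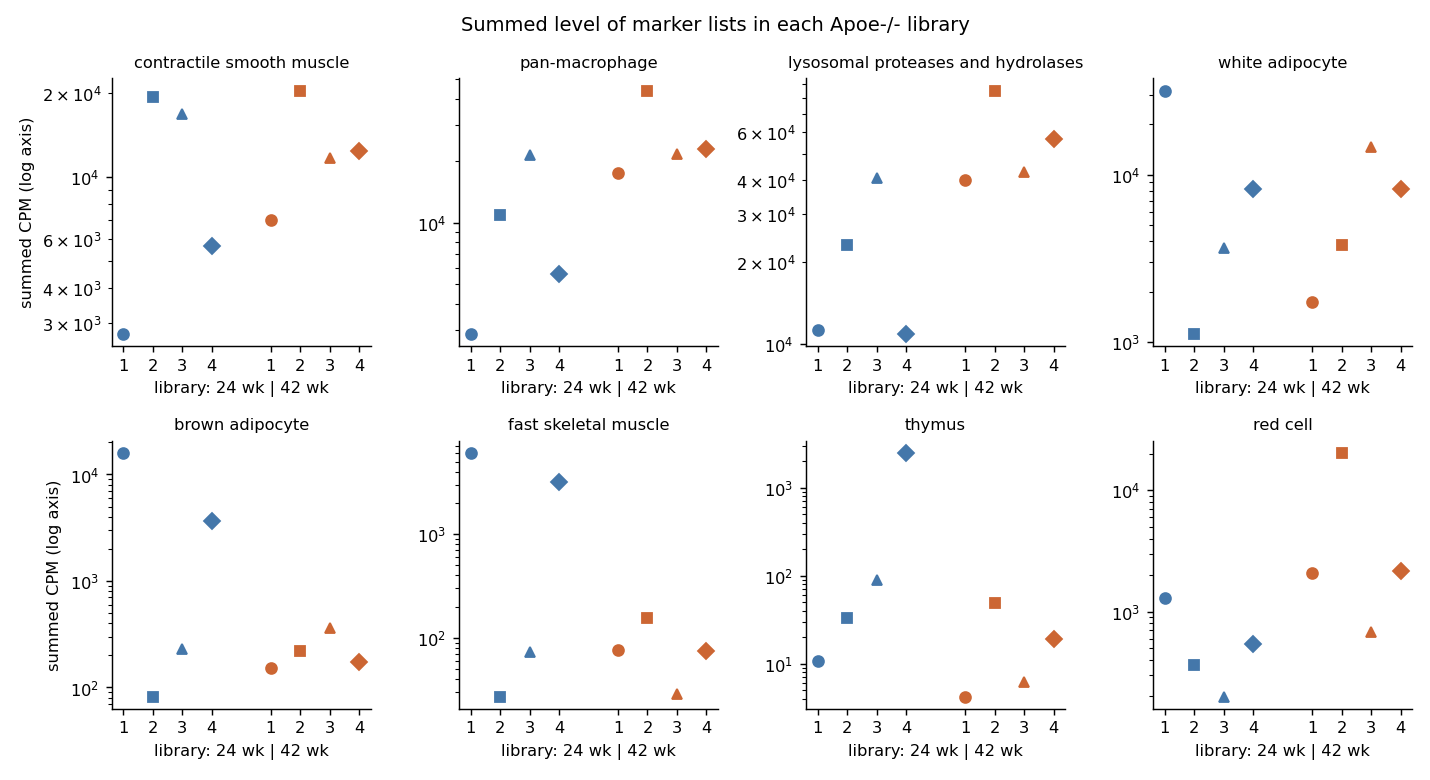
Summed CPM (log axis) of 8 marker lists in each of the 8 Apoe-/- libraries, 24-week libraries in blue and 42-week libraries in orange, with 1 marker shape per library number. The 24-week libraries 1 and 4 are lowest in smooth muscle (2741 and 5645 CPM), macrophage and lysosomal genes and highest in brown adipocyte (15802 and 3628 CPM) and fast skeletal muscle genes (6015 and 3163 CPM), and the 42-week library 2 is highest in red cell genes (20216 CPM).

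The lysosomal genes Ctsd, Hexa and Psap and the foam cell and macrophage genes Lgals3, Gpnmb, Itgax, Mmp12 and Fabp5 were higher in each 42-week library than in any 24-week library, with fitted log2 fold changes of 1.50 to 3.24. Spp1, the most abundant gene of the foam cell list, was not (log2 fold change -0.25). Genes lower in each 42-week library were mostly of low abundance, and Mcoln1, which encodes a lysosomal cation channel, was one of them.

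No gene passed the test. edgeR's quasi-likelihood test over all 16 libraries with Benjamini-Hochberg adjustment called 0 of 10634 genes higher (0%) and 0 lower (0%) at 42 weeks, and the smallest adjusted p was 0.322. At an unadjusted p under 0.05 there were 412 genes with higher values (3.87%) and 889 with lower values (8.36%). DESeq2 called 167 higher (1.88%) and 224 lower (2.52%) of the 8875 genes to which it gave an adjusted p. Of those 391 genes, 298 (2.8% of the genes tested by edgeR) had over 50% of their CPM in 1 of the 8 libraries and 132 (1.24%) had groups that did not overlap. limma voom on the counts and limma on the deposited log2-scale values each called 0. Genes are therefore described here by their values and by whether the 4 libraries of 1 duration all lay above the 4 of the other. That held for 113 genes higher at 42 weeks (1.06% of those tested) and 329 lower (3.09%). Of the 442, 20 were predicted or unnamed genes (0.188% of those tested). For a gene with no difference, 4 against 4 libraries lie apart with a probability of 0.0286, the smallest p of the exact permutation test. That value takes both directions together. The genes share libraries, so these counts are a description and do not by themselves show a change. The median log2 fold change of all tested genes was -0.12 with TMM scaling, 0.16 with DESeq2's size factors and -0.36 with library totals. The split of higher to lower non-overlapping genes was 213 to 250 with size factors and 83 to 398 with library totals. With every library thinned to the count of the shallowest, it was 123 to 132.

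The direction went with abundance. Among the 523 genes with a mean over 300 CPM in the 8 libraries, 70.4% had a log2 fold change above 0, and the groups did not overlap for 6.31% in the higher and 0.191% in the lower direction. Among the 2420 genes under 10 CPM, 32.8% had a log2 fold change above 0, with 0.413% and 4.26% not overlapping. Counts of abundant list members are therefore to be read against the 6.31% as well as the 1.06%. The lists were chosen with earlier results of these data known, so their counts are a description. The shallowest library, 42-week library 1, had no read for 23.7% of the tested genes, where the other 42-week libraries had none for 5.94% to 9.97% and the 24-week libraries for 1.98% to 9.07%. Without 42-week library 1, 338 genes were non-overlapping in the higher and 563 in the lower direction, with fewer samples to separate. The part of this library in the lower values of rare genes was not tested beyond that and the thinned counts given above.

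**Figure D2:**
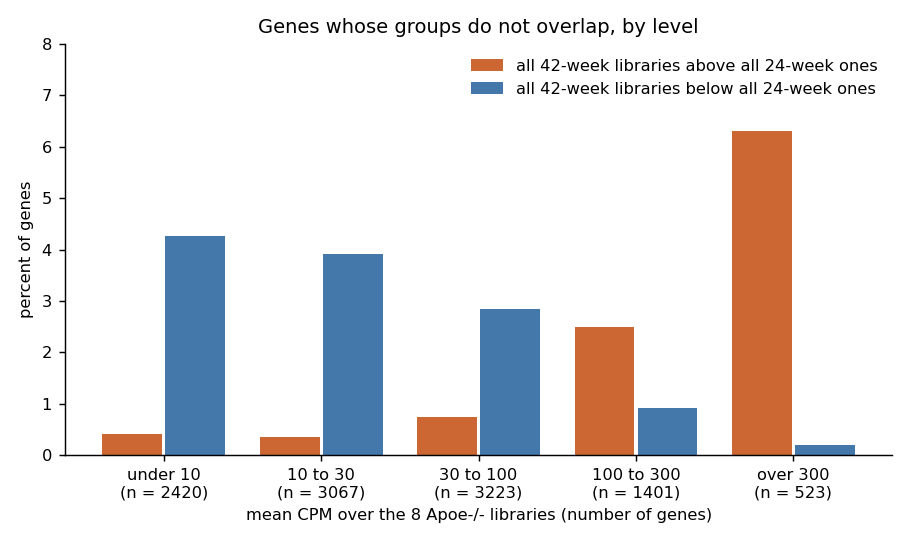
Percent of genes (vertical axis) whose 4 42-week libraries all lay above (orange) or all lay below (blue) the 4 24-week libraries, in 5 classes of mean CPM over the 8 Apoe-/- libraries with the number of genes in each. The higher share is 0.413% under 10 CPM and 6.31% over 300 CPM, and the lower share is 4.26% and 0.191%.

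The 12 higher and 12 lower genes described in full were those with the smallest edgeR p among named genes whose groups did not overlap, with a mean of at least 10 CPM and no library holding over 50% of the CPM of the 8. There were 77 such genes higher and 141 lower. Since this rule uses the contrast itself, the 12 values in each direction are a description, and the adjusted p was 0.322 for each of the 24.

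Among the lysosomal hydrolases, Ctsd, which encodes the aspartyl protease cathepsin D, had the smallest p of the higher genes. It was at 2681, 2537, 5877 and 1855 CPM in the 24-week libraries 1 to 4 and at 9847, 15469, 7638 and 12602 CPM in the 42-week libraries 1 to 4. Each 42-week library lay above the highest 24-week one, with a log2 fold change of 1.81 (SE 0.50, edgeR unadjusted p = 0.000787). Psap encodes prosaposin, the precursor of the saposins that help degrade sphingolipids, and was at 1116, 1876, 2971 and 1302 CPM against 3526, 6254, 3448 and 7367 CPM (log2 fold change 1.50, SE 0.53). Hexa encodes the alpha chain of beta-hexosaminidase, and its values were 234, 856, 809 and 419 CPM against 1142, 2629, 1671 and 2943 CPM (1.86, SE 0.61). Hexa was called by DESeq2 (adjusted p = 0.0329), while Ctsd (0.0764) and Psap (0.117) were not. Ctsb, the most abundant hydrolase gene, was at 2269, 6463, 11507 and 1981 CPM against 9011, 30286, 11600 and 13202 CPM. Its groups overlapped by 1 library, the deepest of the 24-week libraries, and its log2 fold change was 1.53 (SE 0.49).

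Of the 27 genes in the list of lysosomal proteases and hydrolases, 26 were tested, and 22 (84.6%) had a log2 fold change above 0, against 47.3% of all tested genes, 66.0% of those with a mean of 100 to 300 CPM and 70.4% of those over 300 CPM. The groups did not overlap for 5 of the 26, all higher: Ctsd, Hexa, Psap, Gm2a and Gusb. The upward share was 1.06% over all tested genes and 6.31% over 300 CPM. Gm2a, the activator protein with which beta-hexosaminidase degrades gangliosides, was at 27.3, 194, 127 and 331 CPM against 451, 448, 437 and 772 CPM. Gusb, beta-glucuronidase, was at 67.7, 423, 327 and 33.4 CPM against 529, 742, 472 and 563 CPM. Ctsl overlapped between the groups (510 to 6717 CPM against 3672 to 7377 CPM), and so did Lamp1, which encodes a lysosomal membrane protein (419 to 1258 CPM against 1166 to 1784 CPM). The median log2 fold change of the list was 0.99, and 0.45 without the 24-week libraries 1 and 4. Of the 17 proton pump genes, 14 had values above 0, and 2 did not overlap, Atp6v1d (19.7 to 58.3 CPM against 76.0 to 492 CPM) and Atp6v1b2 (108 to 363 CPM against 411 to 1033 CPM), both of which encode subunits of the pump's cytosolic sector. The list's median was 1.04, and 0.68 without those libraries.

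The promoter windows of Ctsd and Mcoln1 are printed because both hold the full palindromic E-box although the genes lay on opposite sides in the comparison. The windows are RefSeq's for the GRCm38.p6 assembly, run 5' to 3' on the gene's strand from 250 bases before the start to 50 after it, and show the motif TCACGTGA in capitals. The authors' reads were aligned to GRCm39, and no read position enters here.
Ctsd, chr7:142387778-142388077, minus strand: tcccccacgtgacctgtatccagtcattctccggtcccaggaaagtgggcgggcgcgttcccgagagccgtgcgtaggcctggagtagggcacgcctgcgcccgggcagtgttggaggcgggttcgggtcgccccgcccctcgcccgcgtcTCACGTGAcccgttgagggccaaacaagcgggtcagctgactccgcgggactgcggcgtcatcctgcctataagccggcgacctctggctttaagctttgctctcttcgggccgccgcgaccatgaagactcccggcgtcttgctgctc
Mcoln1, chr8:3500269-3500568, plus strand: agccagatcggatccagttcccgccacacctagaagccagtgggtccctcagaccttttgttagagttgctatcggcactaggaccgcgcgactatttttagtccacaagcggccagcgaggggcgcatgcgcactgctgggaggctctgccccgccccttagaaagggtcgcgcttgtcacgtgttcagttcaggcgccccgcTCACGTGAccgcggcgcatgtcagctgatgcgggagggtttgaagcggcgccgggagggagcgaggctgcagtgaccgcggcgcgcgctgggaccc
TCACGTGA is its own reverse complement, so both strands were searched at once, and each match also contains the shorter E-box CACGTG. It was found for 3 of the 20 hydrolase genes with a window (15%: Ctsa, Ctsd and Gla) and for 3 of 12 proton pump genes (25.0%: Atp6v0d1, Atp6v0e and Atp6v1a), against 304 of all 27025 genes with a window (1.12%). CACGTG was found for 40.0% and 33.3% of the lists and 8.09% of all genes. Of the genes with the longer motif, Ctsd alone had groups that did not overlap upward: Ctsa had a log2 fold change of 0.68, Gla of -0.92, Atp6v0d1 of 1.04, Atp6v0e of 0.49 and Atp6v1a of 2.44. A match of letters is a description and not a bound site.

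Tfeb and Tfe3, which encode the factors known to bind that motif, gave no clear order. Tfeb was at 14.6, 31.2, 6.75 and 10.3 CPM at 24 weeks and at 217, 1.182, 233 and 4.88 CPM at 42 weeks, so 2 of the 42-week libraries lay far above and 2 below all 24-week ones. Tfe3 was at 5.94 to 126 CPM against 15.3 to 470 CPM. In the autophagy list, which holds both, 6 of 15 genes were above 0 and 9 below, with a median of -0.33 that became 0.62 in thinned counts.

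The foam cell list gave 5 non-overlapping genes of 21 tested, all higher, against 1.06% of all tested genes and 6.31% of those over 300 CPM. Lgals3 encodes galectin-3, a lectin made in quantity by lipid-laden macrophages. It was at 512, 3144, 4262 and 542 CPM at 24 weeks and at 4953, 11144, 5124 and 7824 CPM at 42 weeks (log2 fold change 1.78, SE 0.55). The 24-week libraries 1 and 4, which are low in artery wall genes, were also the low ones here, and the lowest 42-week library lay above the other 2 as well. Gpnmb, a membrane glycoprotein induced in cells with lysosomal lipid, was at 311, 1233, 2208 and 470 CPM against 2245, 8588, 3254 and 4976 CPM (2.17, SE 0.67). Its highest 24-week and lowest 42-week values nearly touched.

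Itgax encodes the integrin CD11c, carried by foamy macrophages and dendritic cells, and had the largest log2 fold change of the foam cell list. It was at 15.2, 116, 219 and 16.9 CPM against 645, 1693, 250 and 880 CPM (3.24, SE 1.01), with the 42-week library 3 close to the highest 24-week value. Mmp12, the macrophage elastase, was at 208, 418, 608 and 94.4 CPM against 1140, 2635, 866 and 1131 CPM (2.12, SE 0.72). Fabp5, which carries fatty acids inside cells, was at 131, 238, 390 and 68.1 CPM against 925, 956, 860 and 457 CPM (1.95, SE 0.73). For Mmp12 and Fabp5 the 42-week values sat close together apart from 1 high and 1 low library. Without the 24-week libraries 1 and 4 the log2 fold change was 0.95 for Lgals3, 1.45 for Gpnmb, 2.34 for Itgax, 1.47 for Mmp12 and 1.32 for Fabp5. DESeq2 called Itgax (adjusted p = 0.0145), Fabp5 (0.0301), Mmp12 (0.0447) and Lgals3 (0.0496), and not Gpnmb (0.0563).

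Spp1, which encodes osteopontin, was not higher in each 42-week library. It was at 3542, 23337, 34439 and 5179 CPM at 24 weeks and at 18930, 12929, 14228 and 9642 CPM at 42 weeks, so the 42-week libraries lay between the low and the high 24-week libraries. Its log2 fold change was -0.25 (SE 0.47) and took the opposite sign with size factors (0.35) and without 24-week library 3 (0.39), and was -1.08 without the 24-week libraries 1 and 4. Expressed as a ratio to Spp1 within each library, a measure added after the values of both were seen, Lgals3, Gpnmb, Itgax, Mmp12, Myo1f, Cyba and Fabp5 did not overlap between durations, 7 of the 12 higher genes. Over all 10634 tested genes the ratio was higher in each 42-week library for 64 (0.602%), and since the 12 were chosen for groups that do not overlap, their count is a description. The ratio of Lgals3 to Spp1 was 0.105 to 0.144 in the 24-week libraries and 0.262 to 0.862 in the 42-week libraries. The ratio of Gpnmb to Spp1 was 0.0529 to 0.0908 against 0.119 to 0.664. For Ctsd the ratios overlapped (0.109 to 0.757 against 0.520 to 1.31).

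**Figure D3:**
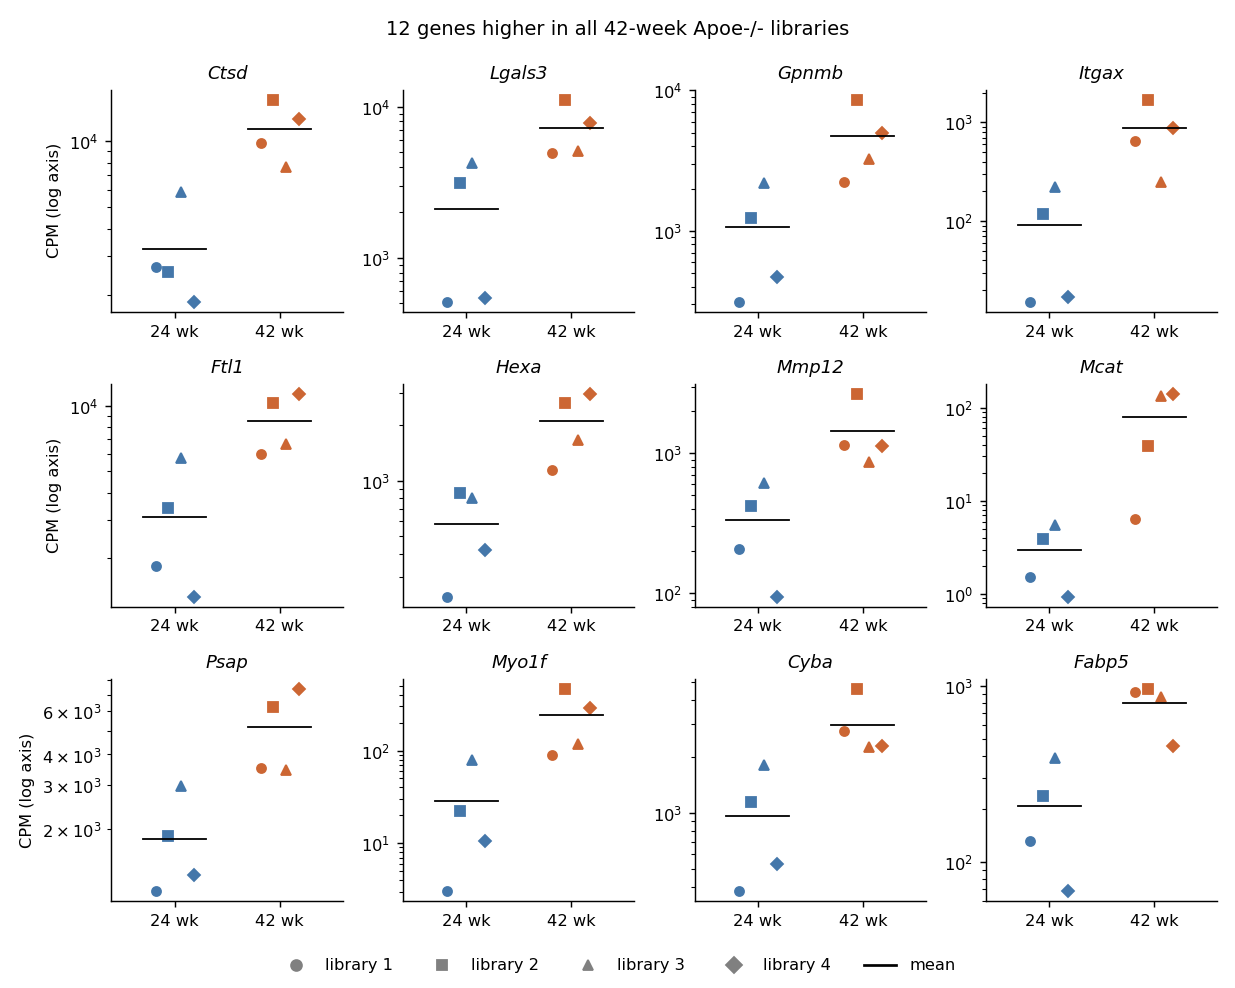
CPM (log axis) of the 12 genes with the smallest p among those higher in all 42-week Apoe-/- libraries, for the 4 libraries at 24 weeks (blue) and 42 weeks (orange), with 1 marker shape per library number and a line at each mean. In each panel the lowest orange point lies above the highest blue point, narrowly for Gpnmb (2245 against 2208 CPM) and more widely for Mmp12 (866 against 608 CPM).

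In all, 17 of the 21 tested foam cell genes were above 0 and 4 below, with a median log2 fold change of 1.38 (1.08 without the 24-week libraries 1 and 4). The 4 below were Spp1, Cd36, Npc1 and Soat1. Cd36 and Soat1 encode the scavenger receptor and the enzyme that take up and esterify cholesterol, and had values of 21.3 to 349 CPM against 33.7 to 186 CPM and of 4.55 to 71.8 CPM against 4.22 to 24.8 CPM. Trem2, a lipid receptor of macrophages, was at 327, 247, 620 and 85.0 CPM against 852, 2012, 765 and 525 CPM, overlapping by 1 library (1.70). Abca1 and Abcg1, the pumps that return cholesterol to lipoproteins, had log2 fold changes of 2.52 and 2.37 with overlapping groups.

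Most general macrophage genes had log2 fold changes above 0, while the direction of the few tested resident macrophage genes changed with the setting. Of the 22 genes in the pan-macrophage list, 20 were above 0, 3 did not overlap (Fcer1g, Mpeg1 and C1qa), and the median was 1.41, or 0.80 without the 24-week libraries 1 and 4. The upward non-overlapping share was 1.06% over all tested genes and 6.31% over 300 CPM. The list summed to 2864, 10914, 21424 and 5587 CPM at 24 weeks and to 17505, 43944, 21610 and 22757 CPM at 42 weeks. The sum of 24-week library 3 thus lay among those of 42-week libraries 1, 3 and 4. Fcer1g, the signalling chain of Fc receptors, was at 182, 343, 481 and 82.2 CPM against 744, 1307, 794 and 1353 CPM (1.95, SE 0.78). Mpeg1, which encodes the pore-forming perforin-2 of phagocytes, was at 28.8, 52.2, 142 and 18.1 CPM against 348, 455, 202 and 308 CPM (2.44, SE 1.05). C1qa, a chain of complement C1q made by macrophages, was at 315, 1000, 1600 and 616 CPM against 2205, 2905, 2289 and 1673 CPM (1.36, SE 0.60), and C1qb overlapped through 24-week library 3 (149 to 2311 CPM against 1840 to 6026 CPM). Lyz2, the most abundant member, overlapped more widely (943 to 9724 CPM against 5841 to 18087 CPM). Adgre1, the F4/80 antigen, stayed under 80 CPM in all 8 and was at 1.56 to 78.2 CPM against 3.49 to 48.1 CPM. Of 12 resident macrophage genes 6 were tested, of which 2 were above 0 (Pf4 and Mgl2) and 4 below (Cbr2, Mrc1, Folr2 and F13a1), with 0 non-overlapping and a median of -0.75. The median of this list was 1.20 without the 24-week libraries 1 and 4 and 1.45 in thinned counts. Cbr2, the most abundant, was at 43.9, 501, 511 and 407 CPM against 21.1, 63.5, 96.9 and 753 CPM.

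The remaining genes of the 12 higher ones have other roles. Ftl1 encodes the light chain of ferritin, the iron store, and was at 1853, 3385, 5771 and 1336 CPM against 6003, 10234, 6649 and 11252 CPM (1.47, SE 0.48). The heavy chain gene Fth1 overlapped (3928 to 10639 CPM against 8819 to 12541 CPM, log2 fold change 0.51). Cyba, the p22phox subunit of the phagocyte NADPH oxidase, was at 380, 1136, 1813 and 530 CPM against 2748, 4606, 2260 and 2268 CPM (1.62, SE 0.60). Myo1f, a myosin of leukocytes, was at 3.03, 22.3, 78.7 and 10.6 CPM against 88.5, 461, 117 and 289 CPM (3.05, SE 1.09). Mcat, a transferase of mitochondrial fatty acid synthesis, was the rarest of the 12, at 1.52, 3.88, 5.55 and 0.938 CPM against 6.32, 38.7, 133 and 139 CPM. The value of 42-week library 1 rested on 3 counts. Without the 24-week libraries 1 and 4, Ftl1 was at 0.87 and Cyba at 0.98 on the log2 scale.

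Red cell genes had log2 fold changes above 0 for 6 of 7 tested members, with 1 whose groups did not overlap. Of all tested genes, 47.3% were above 0 and 1.06% did not overlap upward (6.31% of those over 300 CPM). Hbb-bt, a beta-globin gene, was at 37.4, 15.03, 3.05 and 15.6 CPM against 69.6, 1235, 43.1 and 99.1 CPM (4.35, SE 1.20), with library 2 of the 42-week group far above the rest. Hba-a1 (50.6 to 405 CPM against 207 to 7210 CPM) was among the 5 genes with the smallest p of all. Its groups overlapped, and 1 library held 74.6% of its CPM of the 8. Its log2 fold change was 3.76, and as low as 1.87 with 1 library left out. Haemoglobin genes made up 0.0479 ± 0.0461% of counts at 24 weeks and 0.482 ± 0.660% at 42 weeks (SD, n = 4 each; exact two-sided permutation p = 0.0571, adjusted over the 6 measures 0.229), a difference of 0.434 percentage points that was 0.106 without 42-week library 2. Haemoglobin genes of the same chain are near-identical copies, so reads can be split between those copies. Blvra, which encodes biliverdin reductase and works after haem is opened, was at 35.4, 35.3, 3.16 and 4.69 CPM against 190, 355, 77.2 and 102 CPM (3.21, SE 1.27). Hmox1, the haem oxygenase before it, was at 6.25 to 327 CPM against 8.43 to 317 CPM. Of 16 genes in the iron, haem breakdown and NRF2 list, 9 were above 0, against 47.3% of all tested genes. Ftl1 and Blvra were the 2 whose groups did not overlap, to be read against the upward shares given above.

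Among the wall genes, Col4a1 and Col4a2, which encode basement membrane collagens, were higher in each 42-week library. They were 2 of the 15 tested genes of the collagen list. The upward non-overlapping share was 1.06% over all tested genes and 6.31% over 300 CPM. Col4a4, another type IV collagen gene, was not higher in each 42-week library and had no count in library 2. Col4a2 was at 206, 314, 271 and 203 CPM against 942, 640, 477 and 3976 CPM (2.60, SE 0.80), and Col4a1 at 373, 471, 469 and 118 CPM against 870, 1208, 623 and 611 CPM (1.21, SE 0.68). The 24-week libraries 1 and 4 were the lowest in Col4a2, close to the other 2. The value of 42-week library 4 stood far above the rest for Col4a2, and its log2 fold change was as low as 1.45 with 1 library left out. Col4a1 and Col4a2 are known to be transcribed away from a shared promoter. The RefSeq window of Col4a2 in GRCm38.p6 is printed with the 78 bases that it shares with the window of Col4a1 (chr8:11312777-11313076, minus strand) in capitals.
Col4a2, chr8:11312555-11312854, plus strand: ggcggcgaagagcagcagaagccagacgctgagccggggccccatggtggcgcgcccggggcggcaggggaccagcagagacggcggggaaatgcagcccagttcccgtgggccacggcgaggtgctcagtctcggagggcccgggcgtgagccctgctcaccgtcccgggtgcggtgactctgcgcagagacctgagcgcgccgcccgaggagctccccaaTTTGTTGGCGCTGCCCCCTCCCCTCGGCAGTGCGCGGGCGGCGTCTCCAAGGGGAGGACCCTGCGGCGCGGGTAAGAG
In the rest of the collagen list, 8 genes were above 0 and 5 below. Col1a1, the main fibrillar collagen of the plaque cap, was at 774 to 7696 CPM against 3052 to 9143 CPM, and Col3a1 at 850 to 5734 CPM against 1345 to 3048 CPM. The list's median was 0.36, and -0.22 without the 24-week libraries 1 and 4.

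Smooth muscle and elastic fibre genes gave no such order. Of 18 contractile genes, 11 were above 0 and 7 below, none with groups apart (0 higher, 0 lower), and the median was 0.14, or -0.52 without the 24-week libraries 1 and 4. Acta2, smooth muscle actin, was at 426, 7783, 7212 and 1460 CPM against 3191, 7776, 4225 and 5020 CPM. All 42-week values lay between the second lowest and the highest 24-week value, and its log2 fold change was 0.26 (SE 0.61), and -0.59 without the 2 low ones. Of 17 elastic fibre genes, 8 were above 0 and 9 below. Eln, elastin, was at 672 to 2200 CPM against 510 to 3297 CPM. Loxl1, an enzyme that crosslinks elastin, was at 104, 426, 307 and 325 CPM against 761, 866, 398 and 1211 CPM, overlapping by 1 library (1.48). In the calcification list 9 of 16 were above 0. Tnfrsf11b, osteoprotegerin, was at 6.06, 308, 132 and 110 CPM against 6.32, 17.7, 5.98 and 14.0 CPM, so 3 of the 24-week libraries lay above all others.

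Inflammatory lists were mixed. Their counts are to be read against all tested genes: 47.3% were above 0, 1.06% did not overlap upward and 3.09% did not overlap downward. Of 16 tested chemokine genes 10 were above 0 and none had groups apart, and Ccl2, a monocyte attractant, was at 2.02, 27.5, 30.5 and 2.501 CPM at 24 weeks against 230, 191, 22.1 and 4.88 CPM at 42 weeks. Il1b was at 0 to 79.4 CPM against 0 to 32.1 CPM, and Il6 had no count in any of the 8, which allows up to 3 counts per library. Of 10 tested interferon-induced genes, 2 were above 0 and 8 below. Oas1a was the 1 that did not overlap, at 3.03, 10.6, 12.5 and 9.69 CPM against 2.11, 0.591, 2.34 and 0.698 CPM, where 1 count in 42-week library 1 equals 2.11 CPM. The list's median was -1.60, and 0.00 without the 24-week libraries 1 and 4. Of the MHC class II genes 6 of 8 were above 0, with H2-Ab1 at 385 to 797 CPM against 688 to 946 CPM. Efferocytosis genes, for the uptake of dead cells, were above 0 in 8 of 13, and Mfge8, a bridge to the dead cell, was at 881, 2393, 3955 and 505 CPM against 3366, 5485, 5478 and 4794 CPM (1.31, SE 0.54), overlapping by 1 library.

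Senescence and cell cycle genes gave few non-overlapping members. Cdkn2a, the p16 locus, had no count in any of the 8, and Cdkn1a was at 80.0 to 217 CPM against 78.0 to 443 CPM. In the senescence list 10 of 12 tested genes were above 0, against 47.3% of all tested genes. Igfbp3, a secreted growth factor binding protein, was the 1 whose groups did not overlap, against an upward share of 1.06% of all tested genes. It was at 4.04, 1.35, 0.653 and 5.94 CPM against 8.43, 98.4, 32.5 and 6.28 CPM. Its lowest 42-week value lay close to the highest 24-week one, and 8.43 CPM in 42-week library 1 equals 4 counts. In the DNA replication and mitosis list 6 of 17 were above 0. Mcm7, a subunit of the replicative helicase, was at 110 CPM in 24-week library 4, which also held the thymus genes, and at no more than 3.81 CPM in the other 7. Mcm4, of the same helicase, was at 0, 21.1, 60.1 and 77.8 CPM against 0, 0.591, 0 and 8.37 CPM.

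The 12 lower genes were rarer than the higher ones. Mcoln1, the mucolipin-1 channel that lets calcium out of lysosomes, had the smallest ratio of highest to lowest 24-week value among them: 102, 109, 118 and 77.2 CPM at 24 weeks and 8.43, 2.66, 1.56 and 4.19 CPM at 42 weeks, from 203, 646, 1084 and 247 counts against 4, 9, 6 and 6. All 4 values at 24 weeks lay far above the highest at 42 weeks, and the log2 fold change was -4.68 (SE 1.37, unadjusted p = 0.00152). Abcd4, a transporter with a role in cobalamin release from lysosomes, was at 139, 60.1, 36.9 and 225 CPM against 6.32, 0.886, 6.50 and 5.58 CPM (-4.59, SE 1.47). Rdh13, a mitochondrial retinol dehydrogenase, had 77, 51, 204 and 70 counts against 0, 0, 2 and 0, and Jrk, a nuclear DNA-binding protein, 268, 141, 7 and 457 counts against 0, 0, 2 and 1. For those 2 genes no fold is given, since almost nothing was counted at 42 weeks.

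The other 8 lower genes had fitted log2 fold changes from -5.80 (Slc9a5, a sodium-proton exchanger) to -3.85 (Mtx1, of the mitochondrial outer membrane import machinery). Kmt2b, a histone H3 lysine methyltransferase, was the most abundant, at 352, 83.9, 185 and 113 CPM against 2.11, 14.5, 21.1 and 7.67 CPM. Pim3, a survival kinase, was at 174, 59.8, 54.8 and 173 CPM against 4.22, 11.8, 0.780 and 4.88 CPM. Crabp2, which carries retinoic acid to the nucleus, was at 230, 111, 61.5 and 77.2 CPM against 4.22, 2.66, 11.96 and 11.86 CPM. For each of these 3 genes the groups lay well apart. Gemin5 of the SMN complex, Map2k5, a kinase of the ERK5 pathway, and Specc1l, a cytoskeletal protein, were the remaining 3, with log2 fold changes of -5.50, -4.45 and -4.39. In thinned counts Specc1l was at -1.62 and the other 8 genes with a fold given here and a thinned fit lay between -6.66 (Gemin5) and -3.58 (Mtx1), while Slc9a5 had none. DESeq2 called 9 of the 12 lower genes and 7 of the 12 higher ones, against 2.52% lower and 1.88% higher over all genes. Since both sets were chosen by p in this same contrast, these counts are a description.

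**Figure D4:**
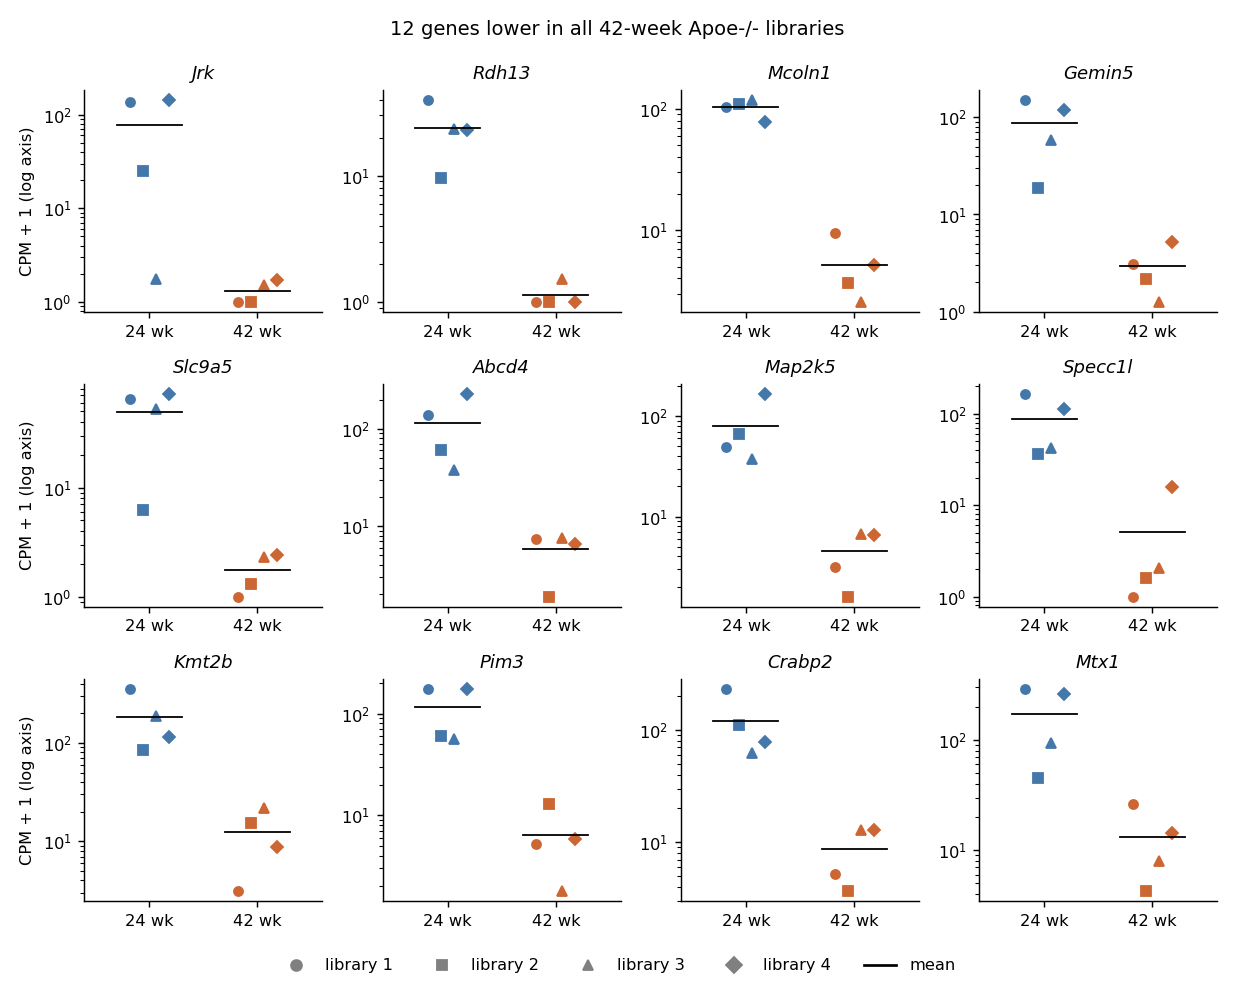
CPM + 1 (log axis) of the 12 genes with the smallest p among those lower in all 42-week Apoe-/- libraries, for the 4 libraries at 24 weeks (blue) and 42 weeks (orange), with 1 marker shape per library number and a line at each mean. Mcoln1 has the narrowest 24-week range on the log axis (77.2 to 118 CPM against 1.56 to 8.43 CPM), and in the Jrk panel 24-week library 3 (0.762 CPM) lies just above the 42-week libraries.

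Several lists of energy metabolism and of neighbouring tissues had medians below 0 that lay above 0 without the 24-week libraries 1 and 4. Of the nuclear genes for the respiratory chain 0 of 25 were above 0, with a median of -1.38, and 0.33 without those 2 libraries. Cox4i1, a subunit of cytochrome c oxidase, was at 6991, 657, 739 and 2075 CPM against 1303, 1494, 1276 and 753 CPM. The mitochondrially encoded list had a median of -0.56, and 1.70 without them, and its gene mt-Co1 was at 37350, 2387, 3961 and 19853 CPM against 7567, 7475, 5622 and 15544 CPM. The medians with and without them were -1.18 and 1.79 for the white adipocyte list, -4.61 and 0.56 for the brown adipocyte list and -5.09 and 1.43 for the fast skeletal muscle list. White adipocyte genes were not highest in those libraries alone: they summed to 31744, 1118, 3627 and 8232 CPM against 1735, 3822, 14646 and 8202 CPM. Cox8b, a brown fat and muscle oxidase subunit, was at 5679, 16.04, 102 and 1048 CPM against 78.0, 54.4, 194 and 71.2 CPM, and Acta1, skeletal actin, at 1161, 2.20, 3.38 and 775 CPM against 19.0, 4.14, 2.60 and 24.4 CPM.

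Beta-oxidation genes had a median of -1.90, and -0.000556 without the 24-week libraries 1 and 4. Of the list's 17 tested genes, 3 were lower in each 42-week library than in any 24-week one, against 3.09% of all tested genes. Hadha, the alpha subunit of the mitochondrial trifunctional protein, was at 1015, 195, 267 and 252 CPM against 25.3, 62.3, 91.7 and 26.5 CPM (-3.06, SE 0.96, DESeq2 adjusted p = 0.0327). The brown adipocyte sums of the 24-week libraries, in the same order, were 15802, 82.1, 227 and 3628 CPM, and their part in the beta-oxidation values was not tested. Acadvl, the very long chain dehydrogenase, was at 14.6, 12.2, 13.9 and 17.8 CPM against 4.22, 0, 0.780 and 2.09 CPM. Eci2, an isomerase for unsaturated fatty acids, was at 56.1, 41.4, 69.0 and 35.0 CPM against 14.8, 1.77, 27.5 and 25.1 CPM. Hadhb, the beta subunit that pairs with Hadha, was at 25.1 to 624 CPM against 8.37 to 57.6 CPM and overlapped.

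**Figure D5:**
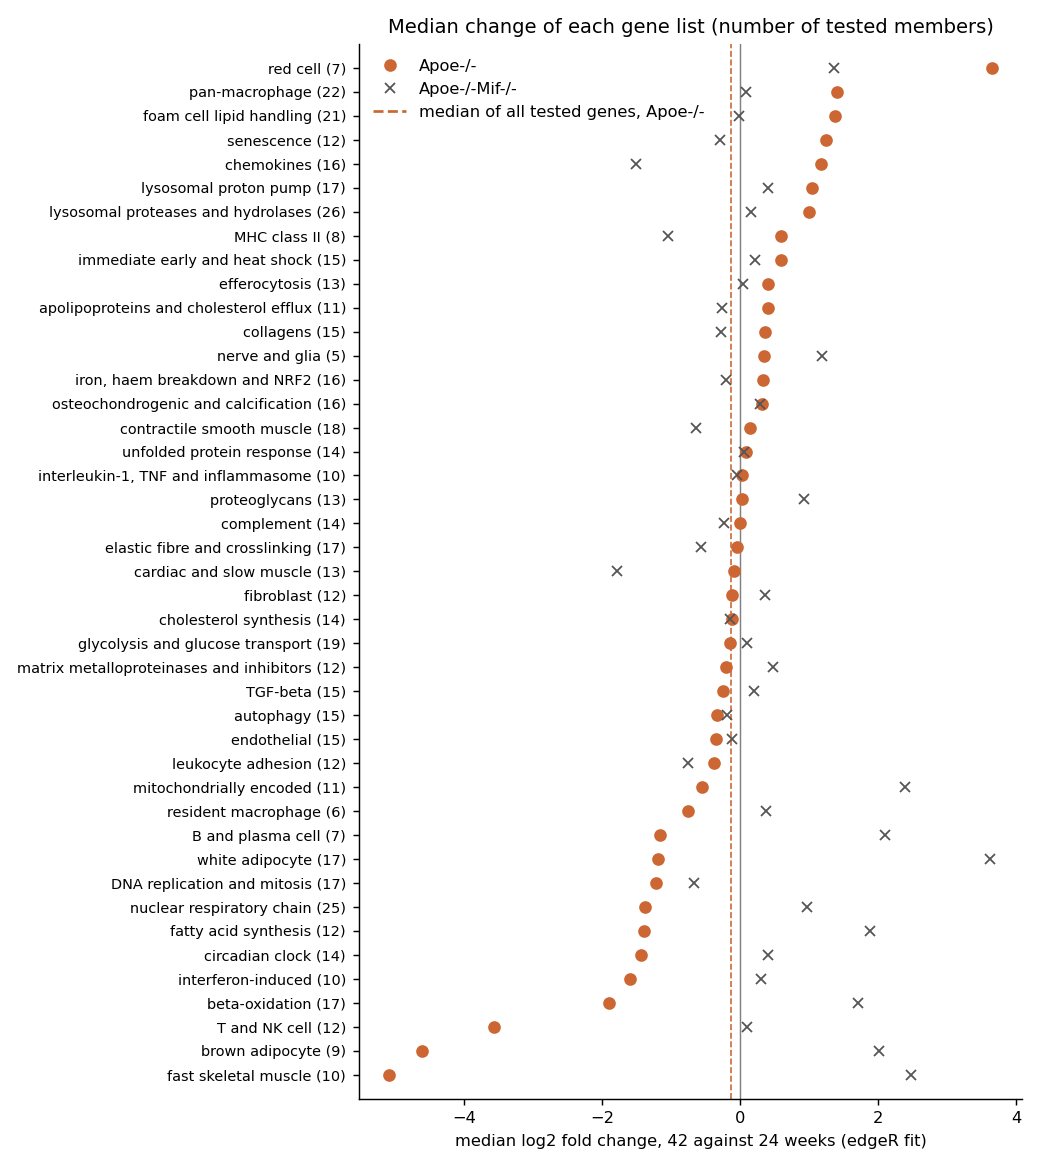
Median log2 fold change of 42 against 24 weeks (horizontal axis, edgeR fit) for each gene list with at least 5 tested members, in Apoe-/- (orange circles) and Apoe-/-Mif-/- mice (grey crosses), with the median of all tested genes in Apoe-/- as a dashed line at -0.12. The pan-macrophage, foam cell, hydrolase and proton pump lists lie at 0.99 to 1.41 in Apoe-/- and between -0.01 and 0.41 in Apoe-/-Mif-/-, and the fast skeletal muscle list lies at -5.09 and 2.48.

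In Apoe-/-Mif-/- mice the same contrast was made from other libraries. The foam cell list had a median of -0.01 there, the hydrolases 0.16, the proton pump 0.41 and the pan-macrophage list 0.08. edgeR called 13 genes higher there (0.122%) and 0 lower (0%). The 12 genes higher in Apoe-/- had log2 fold changes of -4.44 to 0.39 in Apoe-/-Mif-/- mice. For 1 of them, Mcat, the difference between the 2 duration effects passed edgeR's interaction test (adjusted p = 0.0498), and for the other 11 it did not (up to 0.463), so a difference is not shown for these. Ctsd had an interaction adjusted p of 0.168, Lgals3 of 0.149 and Itgax of 0.203. The 12 genes lower in Apoe-/- had log2 fold changes of -4.48 to 2.36 in Apoe-/-Mif-/- mice. Of these, Rdh13, Gemin5 and Mtx1 lay above 0 and the others below. The interaction test called 0 of them (adjusted p from 0.111 to 0.992). Across the 10634 genes the log2 fold changes of the 2 genotypes had a Pearson correlation of -0.02 and a Spearman correlation of -0.02, a description over genes that share each genotype's libraries.

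The interaction test called 73 genes, 11 with a more positive change in Apoe-/- (0.103%) and 62 with a more negative one (0.583%). Since the 24-week Apoe-/-Mif-/- libraries alone lay in another plate row, plate row cannot be told apart from the interaction. Of the 73, 60 were lower at 42 weeks in Apoe-/- and higher in Apoe-/-Mif-/-, and 42 had over 50% of their CPM in 1 of the 16 libraries. Thrsp, a switch of lipogenesis in fat (interaction -9.37, adjusted p = 0.0136), Plin1, the coat of adipocyte lipid droplets (-12.58), Ces1d, a lipase of fat (-10.62), Dgat2, of triglyceride synthesis (-9.27), and Gpihbp1, of capillaries in fat (-10.89), led the negative side. Plin1 was at 708, 1.01, 67.3 and 410 CPM at 24 weeks and 6.32, 2.07, 78.5 and 4.88 CPM at 42 weeks in Apoe-/-, so its high values were those of libraries 1 and 4. On the positive side, H2-Eb1, an MHC class II chain, was at 134, 110, 261 and 366 CPM against 632, 444, 514 and 317 CPM in Apoe-/- (1.13), and had -3.69 in Apoe-/-Mif-/- (interaction 4.82, adjusted p = 0.0388).

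The interaction count moved by over 1.5 times with each of the 8 Apoe-/- libraries left out and with 6 of the other 8. Leaving out the 24-week Apoe-/- library 1 or the 42-week Apoe-/- libraries 1, 2 or 4 gave 0 calls, 42-week library 3 gave 14, 24-week library 4 gave 47, and 24-week libraries 2 and 3 gave 124 and 119. Leaving out Apoe-/-Mif-/- libraries gave 0, 18, 21 and 14 for 24-week libraries 1 to 4 and 75, 48, 124 and 100 for 42-week libraries 1 to 4. Without the 24-week Apoe-/- libraries 1 and 4 together, 0 genes were called.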

How the data were processed

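Polyadenylated RNA from artery sections was sequenced as paired 100-base reads. Per the submitters' processing notes, reads were trimmed with cutadapt 1.18 and Trim Galore 0.6.4, inspected with FastQC 0.11.5 and aligned to GRCm39 with STAR 2.5.2b. The counting program, the annotation and the tool for the variance-stabilised values are not given in the sources used here. The authors deposited raw read counts per gene, the basis of all results, and values on a log2 scale for 9578 genes, used in 1 alternative. Smart-seq2 reads carry no strand, so overlapping and antisense genes cannot be separated.

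edgeR 4.0.16 (TMM, filterByExpr with a minimum count of 10, quasi-likelihood test) was fitted to all 16 libraries with 4 groups, and the contrast of the 2 Apoe-/- groups and the interaction with genotype were tested (adjusted p under 0.05, 12 residual degrees of freedom). CPM are TMM-scaled. Mouse numbers separate the animals. Lists, named genes and members were chosen with earlier results of these data known. Named genes were Mif and Apoe, the 12 in each direction defined in the report, for each list the most abundant member and up to 4 non-overlapping members per direction, the 5 genes of smallest p, and 5 interaction genes per direction. Other genes in the text were singled out after their values were seen. Alternatives used DESeq2 1.42.0, limma 3.58.1, other scalings and filters, each library left out, and thinning. The test was also run on counts simulated from the means and spread fitted to these data. Such counts cannot show how it behaves where single libraries hold genes of other tissues. 1 row without a gene name (at most 0.00257% of a library) and reporter rows were left out. 0 spike-in rows are in the count table used, so scaling by spike-ins was not run. Exact permutation tests used scipy 1.17.1. Intervals are not given for single counts, and depth limits the rare genes most.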

Additional observations from a re-analysis of the deposited data

Results flagged for a closer look

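Among 64 groups of 4 libraries examined (6 library measures, Mif, Apoe and the 12 higher and 12 lower genes, in each duration), 5 held a library far from the other 3, and chance gives about 1 in 20. The haemoglobin share of 42-week library 2 was 1.47% against 0.245% in the next. Fabp5 on a log2(CPM + 1) scale was 8.84 in 42-week library 4, with the next at 9.75. Rdh13 was 0.604 in 42-week library 3 and 0 in the other 3. Slc9a5 was 2.64 in 24-week library 2, with the next at 5.73, and Abcd4 was 0.916 in 42-week library 2, with the next at 2.72.

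edgeR's interaction test called 73 genes for a difference in the effect of duration between Apoe-/- and Apoe-/-Mif-/- mice. That count was 0 without the 24-week Apoe-/- libraries 1 and 4, 0 with limma voom and 7 in thinned counts. Each value given is the log2 change in Apoe-/- minus that in Apoe-/-Mif-/-. The difference was 9.14 for Mcat, 4.82 for H2-Eb1, 12.30 for Col4a4, 11.44 for Rgs4 and 8.09 for Unc119. It was -7.93 for Cox8b, -8.99 for Acta1, -9.37 for Thrsp, -12.58 for Plin1, -10.62 for Ces1d, -9.27 for Dgat2 and -10.89 for Gpihbp1. Among the Apoe-/- libraries, Cox8b, Acta1 and Plin1 were highest in 24-week libraries 1 and 4. Col4a4, Rgs4 and Unc119 were each high in 1 or 2 of the 4 42-week Apoe-/- libraries (Col4a4 at 154 CPM in library 4 and 0 in library 2, Rgs4 at 56.4 CPM in library 2 and 0 in library 1, Unc119 at 411 and 328 CPM in libraries 1 and 3 and 2.96 CPM in library 2).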

How the results depend on the processing

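The count of called genes was 0 with TMM, size factors, library totals, the 8 Apoe-/- libraries alone, limma, the stricter filter, thinned counts and each library left out, 18 with no filter on low counts and 391 with DESeq2. Genes at an unadjusted p under 0.05 numbered 1301, but 780 with the 8 libraries alone, 4169 without the filter, 756 with limma voom, 664 on the deposited log2 values and 453 in thinned counts (chosen after seeing the data). Non-overlapping genes numbered 442, 738 to 1062 with 1 library left out and 1976 without the 24-week libraries 1 and 4, both with fewer samples to separate, and 255 in thinned counts. The 73 interaction calls became 18 with library totals, 426 without the filter, 543 with DESeq2, 0 with limma voom, 0 on the deposited values, 28 without genes of other tissues, 7 in thinned counts, 0 without the 24-week libraries 1 and 4 and 0 to 124 with 1 library left out. The mitochondrial share differed by -2.13 percentage points, and by 1.54 without those 2 libraries.

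Over the settings tried, the adjusted p ranged from 0.00211 to 0.700 for the 12 higher genes and from 0.00207 to 0.908 for the 12 lower genes, and their sign was fixed by the choice of genes whose groups do not overlap. Of 86 named genes, these 24 included, 72 kept their sign, and of 47 lists 12 did, foam cell, hydrolase, proton pump and pan-macrophage lists included (medians from 0.82 to 1.79, 0.45 to 1.58, 0.68 to 1.48 and 0.80 to 2.02). The opposite sign appeared for Spp1 (0.35 with size factors and with DESeq2, 0.078 with voom, 0.64 on the deposited values, 0.17 thinned), Fn1 (0.27 with size factors and with DESeq2, 0.23 on the deposited values), Mif (-0.22) and Acta2 (-0.069) with library totals, and with voom for Fasn (0.012), Cox4i1 (0.020), mt-Co1 (0.056), Ighm (0.31) and Thrsp (1.19). On the deposited values it appeared for mt-Co1 (0.22), Ighm (0.57), Cfd (-0.12) and Thrsp (0.56). Without the 24-week libraries 1 and 4 it appeared for Acta2 (-0.59), Mgp (-0.14), Col1a1 (-0.40), Fasn (1.90), Cox4i1 (0.77), mt-Co1 (1.48), Ighm (1.03), Cox8b (0.71), Acta1 (2.09) and Thrsp (2.90). With 1 library left out, these genes ranged as follows: Fn1 -0.47 to 0.19, Mif -0.26 to 0.61, Cfd -1.68 to 0.98, Acta2 -0.12 to 0.72, Fasn -2.14 to 0.41, Cox4i1 -1.43 to 0.074, mt-Co1 -1.26 to 0.066, Thrsp -1.72 to 0.53, Spp1 -0.60 to 0.39, Ighm -1.68 to 1.51. The cause was not tested. No paired analysis was possible because the groups share no replicate numbers in the labels. Scaling by spike-ins was not run.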

Other observations

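The genes of cytosolic ribosomal proteins, a family taken up after its values were seen, lay mostly above 0 in Apoe-/-. Of 79 tested, 75 had a log2 fold change above 0 and 12 had groups that did not overlap, all higher at 42 weeks, Rpl13, Rplp1 and Rps16 among them. Groups did not overlap upward for 1.06% of all tested genes and for 6.31% of those over 300 CPM. The family's median was 0.75 against -0.12 over all tested genes, and 42 of its members had a mean over 300 CPM, a class in which 70.4% of all genes were above 0. Its median in Apoe-/-Mif-/- mice was 0.23. edgeR called 0 of the 79, and 4 had an unadjusted p under 0.05.

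For 277 genes the unadjusted p was under 0.05 in the main fit and in each of the 8 fits with 1 library left out. Of these, 57 were higher and 220 lower, 173 had over 50% of their CPM in 1 of the 8 libraries and 124 had groups that did not overlap. In the main fit alone, 3.87% of all tested genes were higher and 8.36% lower at that p. Groups did not overlap for 1.06% upward and 3.09% downward. The fits share most of their libraries, so the 277 are a description and not an independent check. The rarest extreme values came from single libraries: Shc3 was at 522 CPM in 42-week library 4 and at 0 to 3.64 CPM in the other 7, and Gm3896 at 1504 CPM in that library and at 0.313 to 6.32 CPM in the others. Coq8a, a kinase of coenzyme Q synthesis, was at 1646, 99.6, 10.9 and 249 CPM at 24 weeks and at 10.5, 16.3, 19.5 and 16.7 CPM at 42 weeks.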
